A study of Mus musculus with 12 samples.

Results

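The genes described here encode the Wnt ligands, the Frizzled (Fzd) receptors and the secreted inhibitors of the Sfrp and Dkk families. They were chosen by name from the expression table of the dissected chambers, as every gene whose symbol starts with Wnt, Fzd, Sfrp or Dkk followed by a digit. This rule gave 38 of the 26190 genes, namely 19 Wnt, 11 Fzd, 4 Sfrp and 4 Dkk genes. It reads names only and takes in Fzd10os, a non-coding gene beside Fzd10 that makes no receptor.

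The study made heart organoids (HOs) from wild-type mouse embryonic stem cells and compared them with mouse hearts of embryonic stage E11.5 (E11.5H). RNA was sequenced from 4 groups of 3 libraries: E11.5H atria, E11.5H ventricles, and the atrium-like and the ventricle-like parts cut by hand from HOs after 13 days of culture. The labels give the strain C57BL/6 for every sample, and the methods name stem cell lines of C57BL/6 and of a hybrid between C57BL/6 and JF1 without saying which made these HOs. The methods name a laminin-entactin gel or slides coated with another laminin product as support, without saying which served here. The medium held FGF4 (a fibroblast growth factor), and late in culture the HOs also received BMP4 (a bone morphogenetic protein), LIF (leukemia inhibitory factor) and BIO, so that no HO group lacked BIO. The embryonic hearts received none of these agents. The methods call the HO samples biological triplicates. The number of hearts or HOs behind a library is not given in the sources used here, and p-values measure only the spread between these libraries.

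Wnt ligands are secreted, lipid-bearing proteins that bind a Frizzled receptor and, in the β-catenin branch, the co-receptors Lrp5 and Lrp6. Binding keeps β-catenin from being broken down, and it then switches on genes together with TCF/LEF factors, whereas ligands such as Wnt5a and Wnt11 act mostly through branches that steer cell polarity and movement. Sfrp proteins hold ligands outside the cell and most Dkk proteins block the co-receptors, while BIO inhibits the kinase GSK3 and so activates the β-catenin branch below the receptor. In the embryo the pathway helps to form mesoderm, has to be restrained for cardiac cells to form, and later acts in heart progenitors and valves.

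Because every HO had been exposed to BIO, the promoters of the 38 genes were searched for the core letters that TCF/LEF factors bind. The letters were CTTTGAT and CTTTGAA on either strand, in windows from 250 bases before to 50 bases after RefSeq start sites on GRCm38.p6. By symbol 25 of the 38 genes matched, with 28 windows. The letters occurred in 3 of these 28 windows (10.7%) and in 2842 of all 32851 windows (8.65%). Among the feedback and target genes of β-catenin followed below they occurred in 3 of 18 windows (16.7%). A match is a description of letters and not a mapped binding site. The 250 bases before the start site are shown for the 3 members with a match, Wnt5b, Wnt11 and Dkk1, and for Sp5, a target gene of the branch whose level is given with the other pathway genes below. The Wnt5b window belongs to a start site inside the gene, which spans chr6:119432531-119544347. Which start site these samples use was not measured. Capitals mark the searched letters, positions count back from the start site, and each sequence reads 5′ to 3′ on the strand of its gene.
Wnt5b, chr6:119449387-119449636, minus strand, letters from position -71: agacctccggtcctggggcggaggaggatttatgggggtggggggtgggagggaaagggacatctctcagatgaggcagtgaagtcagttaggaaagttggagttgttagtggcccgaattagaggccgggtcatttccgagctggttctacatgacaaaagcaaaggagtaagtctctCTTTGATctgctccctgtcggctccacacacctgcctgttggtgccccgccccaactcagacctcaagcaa
Wnt11, chr7:98834862-98835111, plus strand, letters from position -51: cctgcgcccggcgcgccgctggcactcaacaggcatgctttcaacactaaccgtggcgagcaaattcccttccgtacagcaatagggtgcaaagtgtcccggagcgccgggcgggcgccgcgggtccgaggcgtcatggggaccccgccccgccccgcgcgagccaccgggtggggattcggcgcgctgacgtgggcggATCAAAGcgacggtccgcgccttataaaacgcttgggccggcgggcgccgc
Dkk1, chr19:30549497-30549746, minus strand, letters from position -117: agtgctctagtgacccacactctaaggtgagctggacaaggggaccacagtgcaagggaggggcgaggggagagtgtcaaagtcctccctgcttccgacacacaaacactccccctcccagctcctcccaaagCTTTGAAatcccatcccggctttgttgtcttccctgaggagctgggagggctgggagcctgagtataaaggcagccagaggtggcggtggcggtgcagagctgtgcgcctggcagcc
Sp5, chr2:70474673-70474922, plus strand, letters from position -104: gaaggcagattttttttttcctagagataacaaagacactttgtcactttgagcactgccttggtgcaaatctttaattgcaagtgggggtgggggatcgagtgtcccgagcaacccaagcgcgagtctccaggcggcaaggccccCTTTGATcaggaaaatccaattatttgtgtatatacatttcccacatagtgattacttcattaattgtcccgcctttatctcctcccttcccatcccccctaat

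Each library held between 23971258 and 30540993 fragments assigned to genes. Levels are given as FPKM, counts scaled to the length of the transcript and the size of the library, so that they can be set side by side between genes. As a check of the tissues, 12 genes of heart muscle cells (cardiomyocytes) together reached 14073 to 16848 FPKM per library in E11.5H, against 255 to 985 FPKM in atrium-like and 1597 to 3974 FPKM in ventricle-like parts. The sum of 11 hepatocyte and visceral endoderm genes was 2.27 to 5.52 in E11.5H, with Serpina1a at 0, against 573 to 11851 in the atrium-like and 32.1 to 4185 in the ventricle-like parts. That of 10 gut and other epithelial genes was 74.5 to 101 in E11.5H, 1131 to 3587 in the atrium-like and 630 to 2495 in the ventricle-like parts. Fibroblast genes (8) summed to 362 to 643 in E11.5H and 514 to 4782 in the HOs, and macrophage genes (6) to 9.48 to 42.1 and 58.9 to 320. Endothelial genes (8) summed to 140 to 170 and 4.12 to 44.2, smooth muscle genes (4) to 1087 to 1509 and 91.2 to 561, and neural genes (6) to 16.6 to 28.9 and 7.77 to 169. Epicardial genes (7) summed to 322 to 332 in E11.5H atria, 158 to 159 in ventricles and 12.3 to 195 in the HOs. Erythroid genes (5) summed to at most 9.85 in the HOs and to 5540 to 14205 in 5 E11.5H libraries, but to 53207 in E11.5H ventricles replicate 3. Skeletal muscle genes (5) stayed at or below 50.8 and pluripotency genes (4) at or below 1.28 in every library. The part that these cell types play in the results was not tested, and in bulk samples fewer cells of a type and less RNA per cell cannot be told apart.

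The levels of the 38 genes differed by family and by group. In E11.5H atria the 19 Wnt genes summed to 73.9, 86.9 and 76.1 FPKM in the 3 libraries, and Wnt2 alone made up 46.0% of the mean sum. In E11.5H ventricles they summed to 51.3, 49.7 and 41.3 FPKM, led by Wnt11 with 31.5%. In the HOs Wnt4 led both parts, with 32.8% of the sum in the atrium-like and 26.9% in the ventricle-like parts. The HO sums were 23.9, 42.6 and 37.1 FPKM in the atrium-like parts and 119, 52.6 and 51.9 FPKM in the ventricle-like parts. Among the 10 receptor genes Fzd2 led in both E11.5H chambers (29.9% and 39.4% of the sum) and Fzd1 in both HO parts (57.1% and 63.7%). Sfrp1 gave most of the Sfrp sum in all 4 groups (64.0% to 84.3%) and Dkk3 most of the Dkk sum (86.2% to 98.6%).

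**Figure D1:**
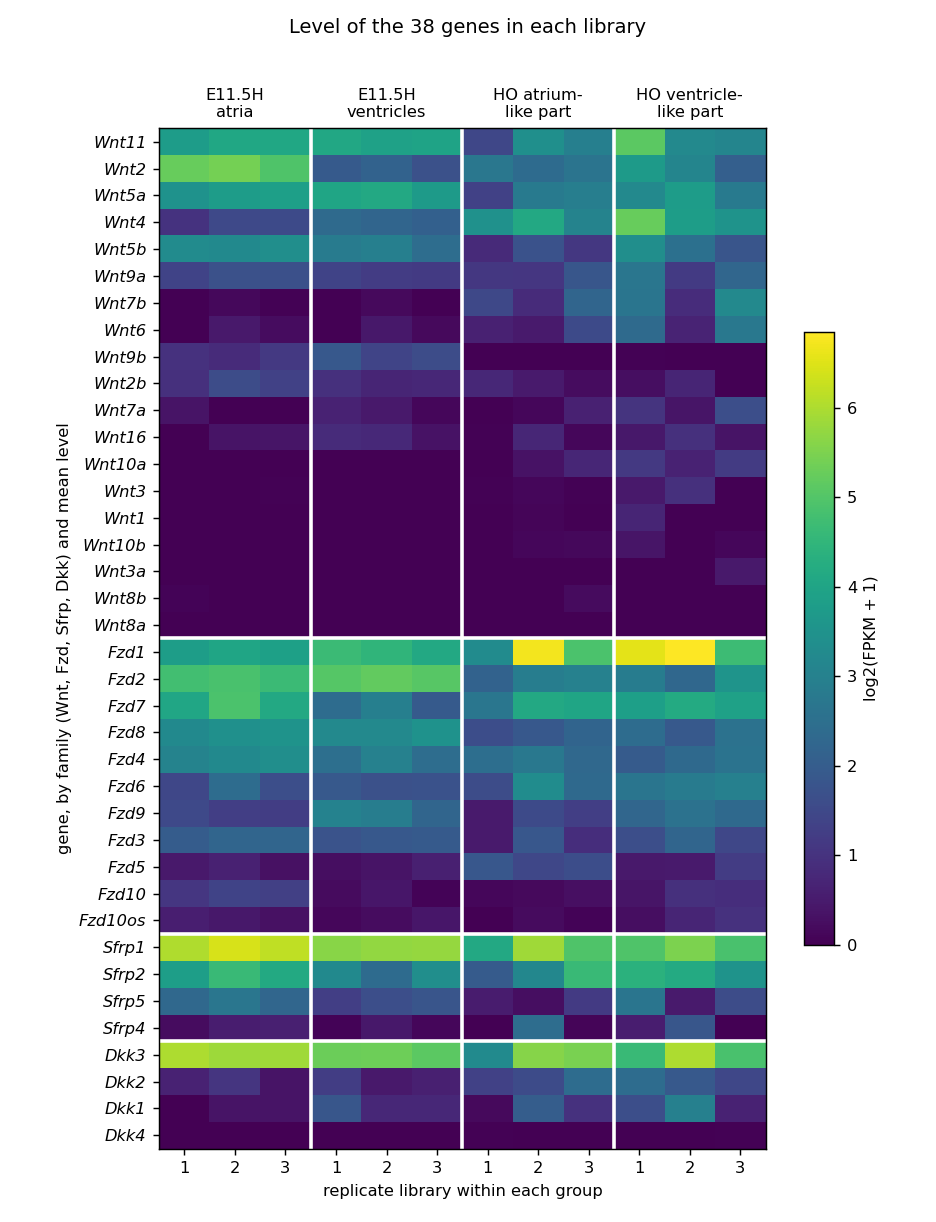
Level of each of the 38 genes (rows, by family and mean level) as log2(FPKM + 1) in each of the 12 libraries (columns, by group and replicate). Wnt2 is bright in the 3 E11.5H atrial libraries, Fzd1 is brightest in 3 HO libraries, and the lowest rows of the Wnt family are dark in all E11.5H libraries.

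**Figure D2:**
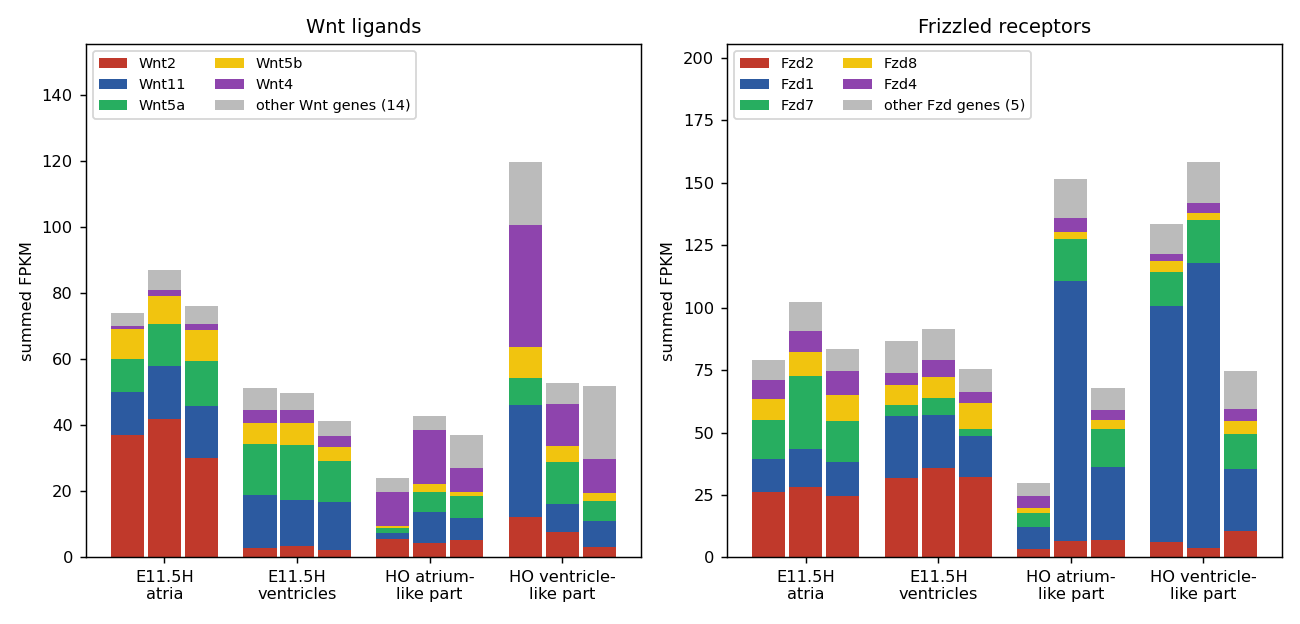
Summed FPKM of the Wnt ligands (left) and of the Frizzled receptors without Fzd10os (right), 1 stacked bar per library in the order of replicates 1 to 3 within each group. Wnt2 fills the largest part of the E11.5H atrial bars and Fzd1 of the taller HO receptor bars, and the HO bars of 1 group differ in height more than the E11.5H bars do.

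The first comparison asked which of these genes distinguish the atria from the ventricles of the embryonic heart. A gene is said to be called where edgeR's quasi-likelihood test gave a Benjamini-Hochberg adjusted p under 0.05 over all genes tested and the log2 fold change exceeded 1 in either direction. Of the 38 members 29 passed the count filter, and 8 of these were called (27.6%) where 4.9% of all 14536 genes tested were. Called higher in atria were 5 members (2.92% of all genes were called in that direction): the ligand gene Wnt2, the receptor genes Fzd10 and Fzd7, and the inhibitor genes Sfrp2 and Sfrp5. Called lower in atria were 3 members, Fzd9, Wnt4 and Wnt9b (1.97% of all genes). Libraries of the 2 chambers did not overlap for 17 of the 29 members, where 33.1% of all genes did not overlap.

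Wnt2, a ligand known from the atrial side and inflow of the early heart, was at 37.1, 41.8 and 29.9 FPKM in the atrial libraries and at 2.83, 3.46 and 2.22 FPKM in the ventricular ones. The lowest atrial library was thus far above the highest ventricular one. The log2 fold change was 3.61 ± 0.17 (SE, n = 3 per group), a 12.2-fold higher level in atria, with adjusted p = 1.3e-06, and the call held without any 1 library. Fzd7, a receptor used in mesoderm and stem cells, was at 15.7, 29.0 and 16.5 FPKM in atria and 4.34, 6.77 and 2.84 FPKM in ventricles (log2 fold change 2.06 ± 0.30, adjusted p = 0.0012). Fzd10 was low in both chambers, at 1.13, 1.58 and 1.47 FPKM against 0.157, 0.342 and 0.0453 FPKM, and its log2 fold change was 2.87 ± 0.61 (adjusted p = 0.011). Neither receptor gene overlapped between the chambers.

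Among the inhibitors, Sfrp2 was at 13.3, 23.9 and 16.8 FPKM in atria and at 8.48, 4.27 and 9.39 FPKM in ventricles (log2 fold change 1.21 ± 0.29, adjusted p = 0.020). Sfrp5, which marks the inflow region of the early heart, was at 3.94, 5.48 and 3.76 FPKM against 1.43, 2.12 and 2.51 FPKM (1.04 ± 0.29, adjusted p = 0.037). Both did not overlap, but these calls were the least firm of the 8. Without atria replicate 2 the log2 fold change of Sfrp2 was 0.96 (adjusted p = 0.090), without atria replicate 3 it was 1.25 (adjusted p = 0.055) and without ventricles replicate 2 it was 0.92. The call of Sfrp5 held only without ventricles replicate 3, and without each of the other 5 libraries its log2 fold change was 0.83 to 1.14 with adjusted p from 0.058 to 0.14. The epicardial sum was higher in atria without overlap (322 to 332 against 158 to 159 FPKM). So were the fibroblast (474 to 643 against 362 to 433 FPKM) and macrophage sums (22.3 to 42.1 against 9.48 to 12.1 FPKM). The cardiomyocyte and neural sums were lower in atria without overlap. Within the atria all members called higher in atria were highest in replicate 2. The epicardial sum was lowest there (332, 322 and 324 FPKM in replicates 1 to 3), as were the neural, skeletal muscle and pluripotency sums. The macrophage (22.3, 42.1 and 37.0 FPKM), endothelial (140, 170 and 167 FPKM) and erythroid sums (5540, 10747 and 5643 FPKM) were highest there. The part of these cell types was not tested.

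On the ventricular side, Fzd9 was at 1.87, 1.41 and 1.37 FPKM in atria and at 7.24, 6.50 and 3.66 FPKM in ventricles (log2 fold change -1.96 ± 0.28, adjusted p = 0.0012). Wnt4, a ligand best known from kidney and gonad, was at 1.02, 1.85 and 1.88 FPKM against 4.13, 3.72 and 3.25 FPKM (-1.30 ± 0.24, adjusted p = 0.0054). Wnt9b, a ligand made by endocardium and kidney epithelium, was at 0.95, 0.801 and 1.18 FPKM against 2.70, 1.66 and 2.02 FPKM (-1.19 ± 0.26, adjusted p = 0.012), with -1.0 and adjusted p = 0.058 without ventricles replicate 1. None of these 3 genes overlapped between the chambers. In a single fit of all 12 libraries, where the larger spread between HO libraries entered, only Wnt2 of the 8 remained called.

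**Figure D3:**
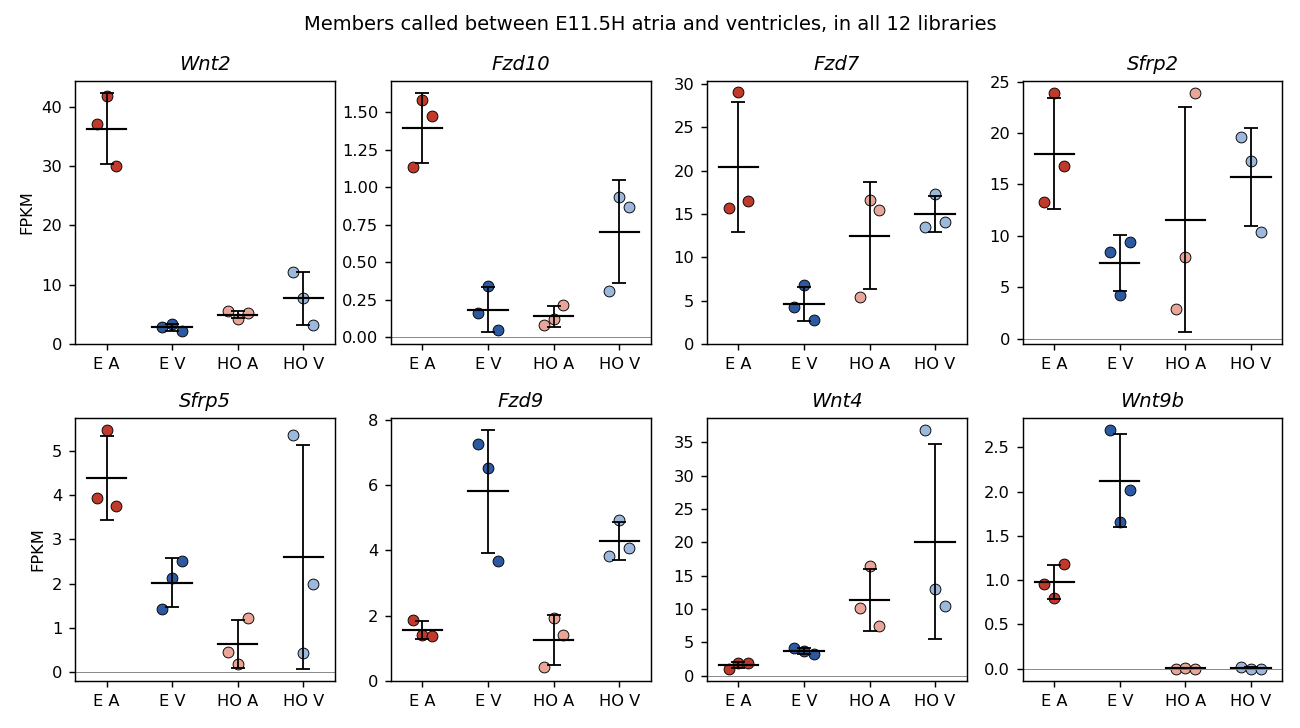
FPKM of the 8 members called between the E11.5H chambers, 1 panel per gene, with points for the 3 libraries of E11.5H atria (E A), E11.5H ventricles (E V), HO atrium-like (HO A) and HO ventricle-like parts (HO V). Horizontal lines are means and bars standard deviations; the 2 E11.5H groups do not overlap in any panel, and Wnt9b lies at or near 0 in both HO groups.

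A further 5 members passed the adjusted p but not the fold limit between the chambers. Sfrp1, the most abundant inhibitor of ligands here, was at 64.4, 85.7 and 71.4 FPKM in atria and at 48.3, 52.1 and 53.4 FPKM in ventricles (log2 fold change 0.45 ± 0.10, adjusted p = 0.012). Dkk3, a divergent Dkk family member, was at 63.4, 56.5 and 57.0 FPKM against 38.9, 39.6 and 33.5 FPKM (0.59 ± 0.08, adjusted p = 0.00088). Wnt5b differed by 0.55 ± 0.15 (adjusted p = 0.039), at 8.95, 8.54 and 9.35 FPKM against 6.19, 6.79 and 4.50 FPKM. On the other side, Fzd1 (13.1, 15.2 and 13.7 against 24.6, 21.4 and 16.4 FPKM, log2 fold change -0.64 ± 0.12) and Fzd2 (26.3, 28.4 and 24.4 against 31.9, 35.6 and 32.2 FPKM, -0.41 ± 0.08) were higher in ventricles. Both changed sign when libraries were scaled to the 12 cardiomyocyte genes, which moved the median of all genes by 0.76. Relative to the moved median they were at -0.65 and -0.42. The polarity ligands were at like levels in both chambers: Wnt11 was at 12.8, 16.0 and 15.8 FPKM in atria and 16.1, 14.1 and 14.6 FPKM in ventricles, and Wnt5a at 10.2, 12.8 and 13.7 against 15.4, 16.5 and 12.2 FPKM. With 1 library left out, the adjusted p of Wnt5b reached 0.126 and that of Sfrp1 0.057. Fzd8 (8.48, 9.79 and 10.4 against 8.31, 8.41 and 10.2 FPKM) overlapped as well, while Fzd4 (7.36, 8.48 and 9.50 against 4.61, 7.05 and 4.46 FPKM) did not overlap but missed the adjusted p (0.059).

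The second comparison asked whether the parts of the HOs differ in these genes as the chambers do. Of the 38 members 30 passed the count filter and edgeR called none of them, as it called 0 of all 15703 genes tested (0.0%). At an unadjusted p under 0.05 there were 4 members, Fzd10, Wnt5b and Fzd9 with lower and Fzd5 with higher values in the atrium-like parts, where 5.66% of all genes passed that limit. DESeq2 called none of the members either, although it called 56 of all genes. Libraries did not overlap for 5 of the 30 members (13.3% of all genes), the 4 named and Fzd10os. The median log2 fold change of the 30 was -0.75 beside -0.03 over all genes, and 25 of the 30 were below 0. Atrium-like part replicate 1 was lowest or tied for lowest of the 6 HO libraries for 21 of the 30 members (tied for Sfrp4). This also held for 42.8% of all genes. The same library had the highest hepatocyte and visceral endoderm sum (11851 FPKM) and the lowest cardiomyocyte sum (255 FPKM), and the part of either was not tested.

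Fzd5, a receptor known from gut and yolk sac epithelium, was at 2.59, 1.76 and 2.05 FPKM in the atrium-like parts and at 0.380, 0.412 and 1.31 FPKM in the ventricle-like parts (log2 fold change 1.82 ± 0.61, unadjusted p = 0.024, adjusted p = 0.75). The 4 HO libraries highest in Fzd5 were also the 4 with the highest gut epithelium sums (1131 to 3587 FPKM). The same 4 had the highest hepatocyte and visceral endoderm sums (573 to 11851 FPKM), and the part of either was not tested. Fzd10 was at 0.0819, 0.118 and 0.216 FPKM against 0.307, 0.932 and 0.867 FPKM, so its values were lower on the atrial side, whereas in E11.5H they were higher there. Fzd9 kept the embryonic order, at 0.414, 1.93 and 1.41 FPKM against 3.81, 4.93 and 4.08 FPKM (log2 fold change -1.67 ± 0.56, unadjusted p = 0.024, adjusted p = 0.75). Wnt5b was at 0.764, 2.28 and 1.15 FPKM against 9.33, 4.73 and 2.5 FPKM. These orders are values of 3 libraries each, and none passed the adjusted test.

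The other genes of the embryonic chamber pattern overlapped between the HO parts. Wnt2 was at 5.53, 4.26 and 5.20 FPKM in the atrium-like parts and at 12.2, 7.72 and 3.19 FPKM in the ventricle-like parts. Fzd7 was at 5.41, 16.6 and 15.4 against 13.5, 17.3 and 14.0 FPKM, and Sfrp2 at 2.90, 7.96 and 23.9 against 19.6, 17.2 and 10.4 FPKM. The genes with the lowest and highest log2 fold change of each family were mostly at low levels. Fzd10os had the lowest log2 fold change (-3.15 ± 1.38) at no more than 0.949 FPKM in any HO library, and Wnt7a had -2.33 ± 1.62 and Wnt2b 0.85 ± 1.34. Sfrp5 had -1.88 ± 1.15, at 0.441, 0.186 and 1.23 against 5.37, 0.419 and 2.0 FPKM, and Sfrp4 had 0.57 ± 2.37, at 0, 4.41 and 0.0699 against 0.469, 2.54 and 0 FPKM. Dkk1, an antagonist of Lrp5 and Lrp6 and itself a target of β-catenin, had -1.16 ± 1.23, at 0.125, 3.03 and 0.962 against 2.13, 6.90 and 0.565 FPKM. Dkk2 had -0.01 ± 0.56, at 1.52, 1.97 and 4.39 against 4.35, 2.77 and 1.72 FPKM.

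**Figure D4:**
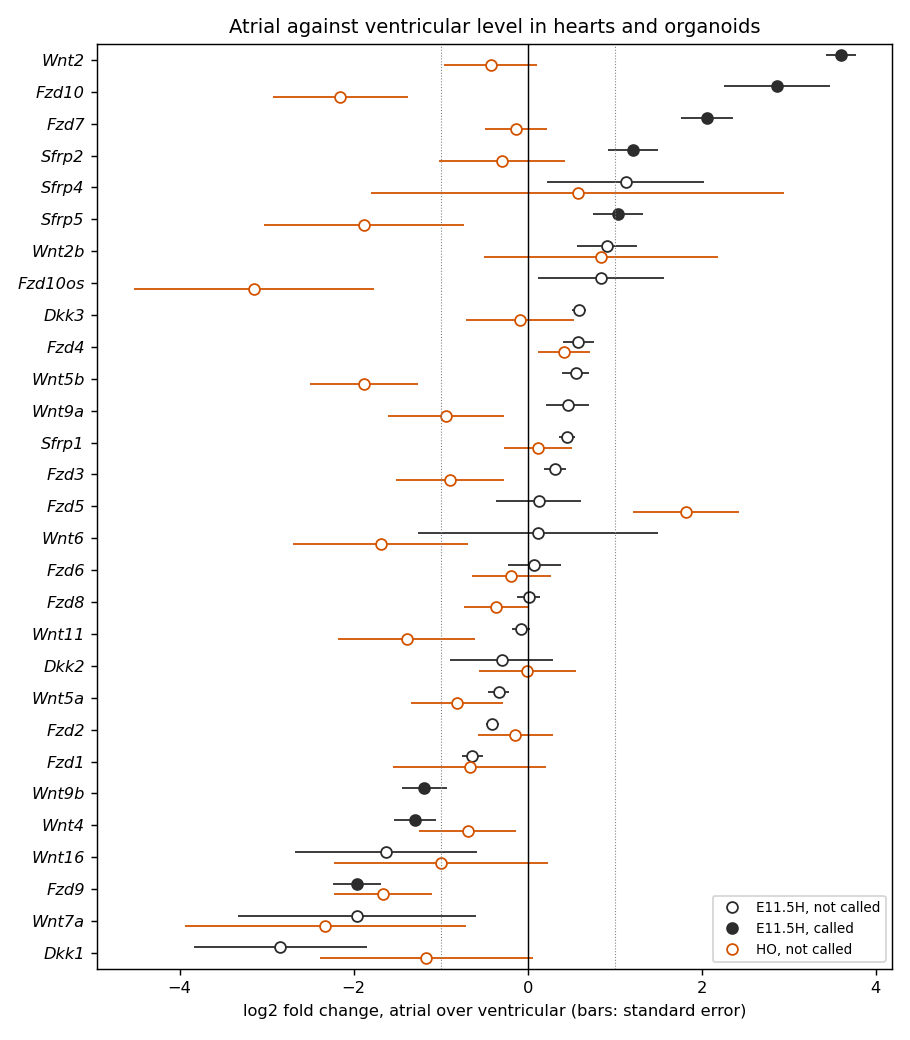
Log2 fold change of atrial over ventricular level for the 29 members tested in E11.5H (black) and, where tested, in HOs (orange; Wnt9b has no HO point), with standard errors as bars and filled points for called genes. The 8 filled points belong to E11.5H, no HO point is filled, and the HO bars are longer for most genes.

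Whether the difference between atrial and ventricular sides itself differed between HOs and E11.5H was tested as an interaction over all 12 libraries. Of the 31 members that passed the filter 1 was called, Wnt2, where 0.152% of all 16494 genes were. Its interaction was -4.03 ± 0.58 on the log2 scale (adjusted p = 0.039), with atrial libraries higher by 3.61 in E11.5H and a log2 fold change of -0.43 ± 0.53 between the HO parts. The call was lost without atria replicate 1, 2 or 3 or ventricles replicate 1, 2 or 3 of E11.5H and without HO atrium-like part replicate 3 (interaction -4.19 to -3.89, adjusted p = 0.085 to 0.15). Over all genes the calls fell from 25 to between 2 and 6 without 1 E11.5H library, and to 13 without that HO library. Fzd10 had the lowest value, -5.02 ± 1.07, with adjusted p = 0.15 by edgeR. The interaction of Fzd7 was -2.18 ± 0.55 and that of Wnt5b -2.41 ± 0.64, and neither passed in edgeR (adjusted p = 0.21 and 0.23). DESeq2 called these 3 genes beside Wnt2, and it called 438 of all 16494 genes.

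The third comparison set each HO part against the matching E11.5H chamber. In the atrial comparison 29 members passed the filter and 11 were called (37.9%), where 24.8% of all 15418 genes were. Higher in the atrium-like parts were 4 members, Wnt7b, Wnt4, Fzd5 and Dkk2 (16.0% of all genes were called higher), and lower were 7, Wnt9b, Fzd10, Wnt2, Sfrp5, Wnt5b, Fzd2 and Fzd8 (8.81%), of which all but Wnt9b changed sign when scaled to the cardiomyocyte genes. That scaling moved the median of all genes by 3.88 in the atrial and 3.09 in the ventricular comparison, and relative to the moved medians all 7 remained below 0 (-8.96 to -1.75). Libraries did not overlap for 20 of the 29 members (54.4% of all genes), and without atria replicate 3 only 7 were called. Without that library 1726 of all 16049 genes tested were called, where 3821 of 15418 were in the main fit. In the ventricular comparison 31 members passed the filter and 9 were called (29.0%), where 18.9% of all 15094 genes were. Higher in the ventricle-like parts were 6, Wnt10a, Wnt7b, Wnt4, Fzd1, Fzd7 and Fzd6 (11.6%), and lower were 3, Wnt9b, Fzd2 and Fzd8 (7.35%), of which Fzd2 and Fzd8 changed sign under the cardiomyocyte scaling. Relative to the moved median Fzd2 and Fzd8 were at -2.70 and -1.47. Libraries did not overlap for 13 of the 31 members (50.7%), and without ventricles replicate 1 or 3 only 4 or 5 were called. Without these libraries 1201 of 15932 and 1212 of 16005 genes were called over all genes, where 2859 of 15094 were in the main fit. These comparisons share the E11.5H libraries with the first one and the HO libraries with the second.

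Of the ligands, Wnt4 rose in both HO parts. It was at 10.1, 16.5 and 7.39 FPKM in the atrium-like parts against 1.02, 1.85 and 1.88 FPKM in atria, a log2 fold change of 3.0 ± 0.37 (7.97-fold, adjusted p = 0.0041). In the ventricle-like parts it was at 36.9, 13 and 10.4 FPKM against 4.13, 3.72 and 3.25 FPKM (2.36 ± 0.52, adjusted p = 0.021). Neither pair of groups overlapped, but the ventricular call was lost without E11.5H ventricles replicate 1, 2 or 3 (log2 fold change 2.29 to 2.42, adjusted p = 0.085 to 0.092). Wnt7b, a ligand of epithelia such as that of the lung, was at 1.79, 0.809 and 3.74 FPKM in the atrium-like and at 5.31, 0.832 and 8.40 FPKM in the ventricle-like parts, and at no more than 0.119 FPKM in any E11.5H library. Its adjusted p was 0.023 in the atrial comparison, lost without atria replicate 3 (0.093) or atrium-like part replicate 3 (0.068). In the ventricular comparison it was 0.029, lost without ventricles replicate 1 or 3 or ventricle-like part replicate 1 (0.069 to 0.097).

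Wnt9b was nearly absent from the HOs. A single fragment was counted over the 3 atrium-like parts against 447 over the atria, a ratio of 410 with an exact 95% interval from 73.2 to 16221, and 3 against 902 fragments on the ventricular side, a ratio of 305 (104 to 1483). These intervals cover counting error only. Without atrium-like part replicate 2, or ventricle-like part replicate 1, no HO fragment of Wnt9b remained, and the level was at least 43.4-fold or at least 101-fold lower. Without another single library the ratios were 272 to 448 and 203 to 340, the lowest without atrium-like part replicate 3 and ventricle-like part replicate 2. Wnt10a went the other way, with no fragment in any E11.5H library and 0, 0.271 and 0.658 FPKM in the atrium-like and 1.18, 0.562 and 1.28 FPKM in the ventricle-like parts. Set against a floor of 3 counts per library it was at least 21.2-fold higher in the ventricle-like parts than in ventricles (called, adjusted p = 0.011), and at least 7.04-fold higher in the atrium-like parts (at least 2.98-fold without replicate 3), where it did not pass the count filter. Wnt6, which lies 6699 bases from Wnt10a on chromosome 1, was at 0.541, 0.414 and 1.89 FPKM in the atrium-like and 4.12, 0.607 and 5.65 FPKM in the ventricle-like parts and at no more than 0.388 FPKM in E11.5H, but was not called (adjusted p = 0.21 and 0.073).

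Wnt2 and Wnt5b were lower in the atrium-like parts than in atria, though both changed sign under the cardiomyocyte scaling (1.29 and 1.11). The log2 fold change of Wnt2 was -2.66 ± 0.25 (adjusted p = 0.0021), and the highest atrium-like library (5.53 FPKM) was below the lowest atrial one (29.9 FPKM). On the ventricular side Wnt2 had 1.36 ± 0.51 and did not pass (adjusted p = 0.091). Wnt5b had -2.56 ± 0.38 in the atrial comparison (adjusted p = 0.0061) and -0.16 ± 0.49 in the ventricular one (adjusted p = 0.82). Wnt11, which acts in outflow tract formation, was at 1.76, 9.56 and 6.75 FPKM in the atrium-like and at 33.8, 8.37 and 7.68 FPKM in the ventricle-like parts, and Wnt5a at 1.51, 6.03 and 6.68 and at 8.27, 12.8 and 6.10 FPKM. Neither of the polarity ligands was called against E11.5H, with adjusted p from 0.070 to 0.93.

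The receptors changed in make-up. Fzd2, the leading receptor gene of E11.5H, was at 3.46, 6.50 and 7.05 FPKM in the atrium-like and 6.33, 3.85 and 10.6 FPKM in the ventricle-like parts, against 24.4 to 28.4 FPKM in atria and 31.9 to 35.6 FPKM in ventricles. The log2 fold changes were -2.07 ± 0.24 (adjusted p = 0.0036) and -2.35 ± 0.37 (adjusted p = 0.0079), with no overlap of the groups, and scaling to cardiomyocyte genes turned them to 1.59 and 0.39. Fzd8 was at 2.09, 2.72 and 3.61 FPKM in the atrium-like and 4.38, 2.76 and 5.01 FPKM in the ventricle-like parts, below the 8.31 to 10.4 FPKM of E11.5H (-1.60 ± 0.25, adjusted p = 0.0071, and -1.24 ± 0.27, adjusted p = 0.021, turned to 2.13 and 1.62 by that scaling). The ventricular call of Fzd8 was lost without ventricles replicate 1, 2 or 3 or ventricle-like part replicate 1 (adjusted p = 0.058 to 0.086). Fzd10 was lower in the atrium-like parts (-3.15 ± 0.58, adjusted p = 0.011, turned to 0.39 by the scaling), and this call was lost without atria replicate 2 or 3 (adjusted p = 0.057 to 0.059).

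Fzd1, a receptor of mesenchyme and muscle, was at 8.90, 104 and 29.1 FPKM in the atrium-like and at 94.5, 114 and 24.8 FPKM in the ventricle-like parts, a wider range than any other receptor gene showed. The 3 HO libraries with about 100 FPKM were also the 3 with the highest fibroblast sums (2045 to 4782 FPKM). The same 3 were highest of the HO libraries in the smooth muscle (389 to 561 FPKM) and macrophage sums (183 to 320 FPKM). They were also highest in the endothelial (23.6 to 44.2 FPKM), neural (50.6 to 169 FPKM) and skeletal muscle sums (4.49 to 50.8 FPKM). In the hepatocyte and visceral endoderm (32.1 to 573 FPKM) and gut epithelium sums (630 to 1131 FPKM) they were the lowest HO libraries. The part of these cell types was not tested. Against ventricles its log2 fold change was 1.81 ± 0.53 (adjusted p = 0.048), and the call held only without ventricle-like part replicate 3. Without each of the other 5 libraries the log2 fold change was 1.46 to 1.92 with adjusted p from 0.091 to 0.16. Fzd7 rose in the ventricle-like parts, at 13.5 to 17.3 FPKM against 2.84 to 6.77 FPKM (1.60 ± 0.31, adjusted p = 0.015), with adjusted p = 0.074 without ventricles replicate 1. Fzd6, a receptor of the polarity branch, was at 5.27, 6.20 and 6.92 FPKM against 2.77, 2.25 and 2.32 FPKM (1.23 ± 0.19, adjusted p = 0.0073), and in the atrium-like parts at 2.02, 9.07 and 4.05 FPKM against 1.73, 4.32 and 2.12 FPKM in atria, which was not called. Fzd5 rose in the atrium-like parts, at 1.76 to 2.59 FPKM against 0.380, 0.532 and 0.245 FPKM in atria (2.67 ± 0.42, adjusted p = 0.0074), and this call held without any 1 library. Fzd4, known as the receptor of norrin in vessels, was at 4.57, 5.72 and 4.01 FPKM in the atrium-like and 2.88, 4.04 and 5.13 FPKM in the ventricle-like parts and was not called against either chamber.

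Of the Sfrp and Dkk genes, Sfrp1 was at 16.4, 57.2 and 30.1 FPKM in the atrium-like and 29.8, 44.5 and 28.6 FPKM in the ventricle-like parts. Its log2 fold changes were -0.98 ± 0.37 (adjusted p = 0.086) and -0.68 ± 0.18 (adjusted p = 0.036, up to 0.12 with 1 library left out, under the fold limit). Under the cardiomyocyte scaling the latter was 2.41, or -0.68 relative to the moved median of all genes. Dkk3 was at 8.77, 47.9 and 43.4 FPKM and at 24.1, 62.6 and 28.2 FPKM and was not called in either comparison. Sfrp5 was called lower in the atrium-like parts (-2.62 ± 0.75, adjusted p = 0.040, 0.97 under that scaling), but not without atria replicate 1, 2 or 3 or atrium-like part replicate 1 (adjusted p = 0.085 to 0.125). Dkk2 was called higher there, at 1.52, 1.97 and 4.39 FPKM against 0.572, 1.10 and 0.283 FPKM in atria (2.19 ± 0.65, adjusted p = 0.046), but not without atria replicate 1, 2 or 3 or atrium-like part replicate 3 (log2 fold change 1.57 to 2.75, adjusted p = 0.068 to 0.15). Against ventricles, where it was at 1.37, 0.393 and 0.530 FPKM, Dkk2 had 1.87 ± 0.61 and missed the adjusted p (0.065). Dkk1 was at 0, 0.279 and 0.289 FPKM in atria and 2.54, 0.693 and 0.681 FPKM in ventricles and was not called in any comparison.

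**Figure D5:**
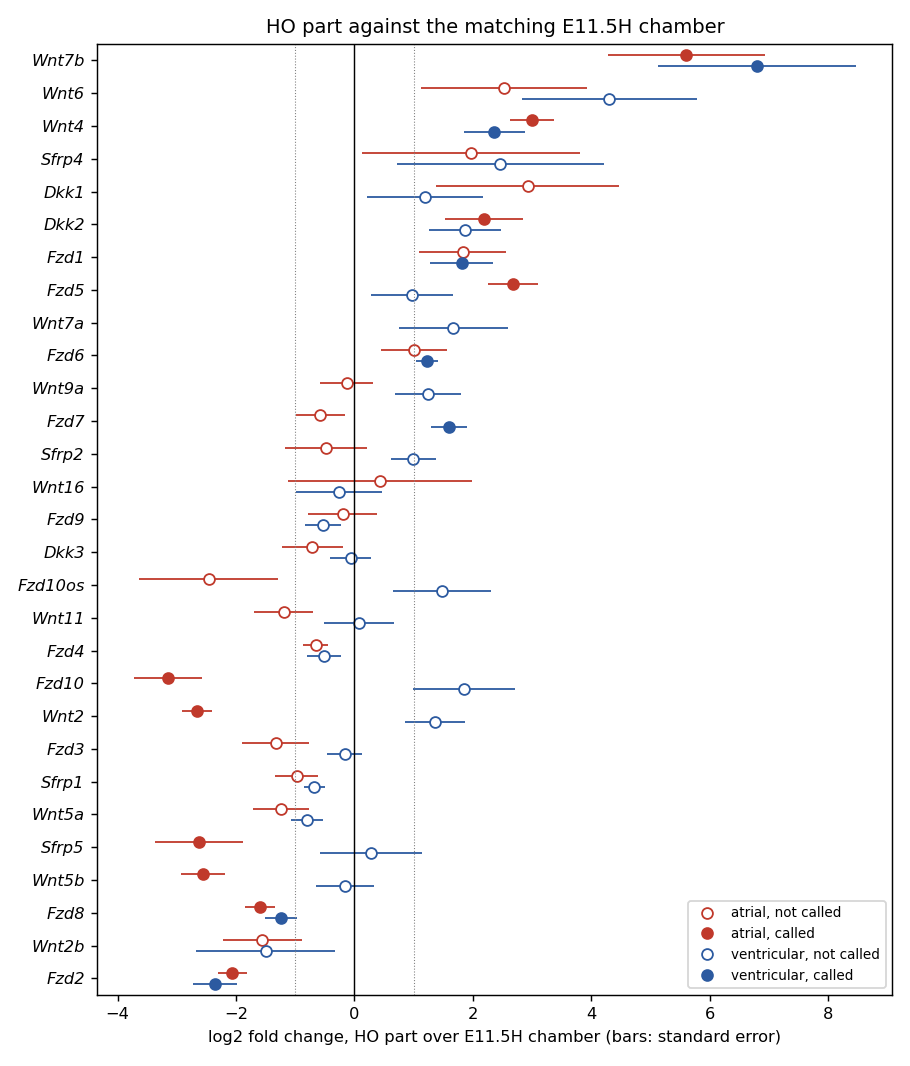
Log2 fold change of each HO part over the matching E11.5H chamber for the members tested, atrial in red and ventricular in blue, with standard errors as bars and filled points for called genes; Wnt9b and Wnt10a, with 0 to 3 fragments in a group, are left out. Wnt7b and Wnt4 have filled points to the right in both colors and Fzd2 and Fzd8 to the left, the latter 2 with the opposite sign when scaled to cardiomyocyte genes.

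The remaining members were low. Wnt8a had no fragment in any library and Dkk4 had 1 over each HO group. Wnt1, Wnt3, Wnt3a, Wnt10b and Wnt8b reached at most 0.0418 FPKM in E11.5H. In single HO libraries Wnt3 reached 0.943, Wnt1 0.631, Wnt3a 0.392, Wnt10b 0.302 and Wnt8b 0.146 FPKM, and none of the 5 passed the count filter in any comparison. Wnt3a, the classical β-catenin ligand of the primitive streak, was counted in 1 HO library only. Wnt2b, Wnt7a, Wnt9a, Wnt16 and Fzd3 stayed between 0 and 5.44 FPKM and were not called. Of the 38 genes 8 overlap another gene on the opposite strand (Fzd5, Wnt6, Sfrp2, Wnt5b, Wnt11, Wnt5a, Fzd3 and Wnt7b), and as the use of strand in counting is not given in the sources used here, reads of such partners cannot be told apart. No stretch of 50 bases, read on the transcript strand, was shared between transcripts of different members. Fzd10os was not among the transcripts compared.

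Beyond the members, 89 genes of the Wnt pathway were followed, from co-receptors to target genes. This list was chosen with earlier results of these data known, so the shares called in it and in its parts are descriptions only. Between the E11.5H chambers 9 of the 81 tested were called (11.1%, beside 4.9% of all genes). Between the HO parts edgeR and DESeq2 called 0 of 85, where DESeq2 called 56 of all 15703 genes. By edgeR 4 of the 85 had an unadjusted p under 0.05, beside 5.66% of all genes. In the atrial HO comparison 17 of 85 were called (20.0%, beside 24.8% of all genes). In the ventricular one 15 of 83 were called (18.1%, beside 18.9% of all genes). Without single libraries the atrial count was 6 (without atria replicate 1 or 2), 8 (without atria replicate 3) or 29 (without atrium-like part replicate 2), and the ventricular count was 5 (without ventricles replicate 2), 6 (without ventricles replicate 1 or 3) or 9 (without ventricle-like part replicate 1). Over all genes 1662, 1690 and 1726 were called without atria replicate 1, 2 and 3, and 5495 without atrium-like part replicate 2 (3821 in the main fit). In the ventricular comparison 1201, 1116 and 1212 were called without ventricles replicate 1, 2 and 3, and 2114 without ventricle-like part replicate 1 (2859 in the main fit). The interaction called 0 of 87 by edgeR, with 9 at an unadjusted p under 0.05, where 1928 of all 16494 genes passed that limit. DESeq2 called 2 of the 87, where it called 438 of all 16494 genes. Of 13 other secreted or surface inhibitors 11 were tested and 5 called between the chambers (45.5%, beside 4.9% of all genes). Higher in atria were Trabd2b (log2 fold change 2.81 ± 0.26), a protease that clips Wnt ligands, Dkkl1 (2.87 ± 0.53), a Dkk relative, and Sostdc1, an antagonist of BMP and Wnt with 92 fragments in atria and 1 in ventricles. Lower were Frzb (-1.69 ± 0.25), a secreted Frizzled-related protein outside the name rule, and Cthrc1 (-1.18 ± 0.11), which favors the polarity branch. Frzb was at 1.92, 2.17 and 1.26 FPKM in atria and 6.97, 5.47 and 4.01 FPKM in ventricles. The other 4 were Rspo2, which strengthens Wnt responses, Tle2, a co-repressor, Daam2, which links Dishevelled to actin, all higher in atria (2.80 ± 0.79, 1.08 ± 0.23 and 1.28 ± 0.16), and Nkd2, an inhibitor of Dishevelled, lower (-2.17 ± 0.55). Without single libraries the call of Rspo2 was lost for all but atria replicate 2 (adjusted p up to 0.135), that of Nkd2 for atria replicate 1 and each ventricular library (up to 0.076) and that of Tle2 for atria replicate 2 (0.053).

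Of 20 feedback and target genes of β-catenin, 18 were tested in the atrial HO comparison and 5 were called higher and 2 lower (38.9% of those tested, beside 24.8% of all genes). In the ventricular comparison 3 of 16 were called (18.8%, beside 18.9%), Notum and Myc higher and Ccnd1 lower. The largest rises were of Cdx2 and Cdx1, factors of the intestine and posterior embryo. Cdx2 was at 61.3, 12.3 and 26.1 FPKM in the atrium-like parts with 2 fragments over all atria, and Cdx1 was at 10.6, 2.87 and 2.93 FPKM with no fragment in atria, at least 110-fold higher and at least 58.3-fold without atrium-like part replicate 1. The count ratio of Cdx2 was 3531, but 2113 without the same library, 2296 without atria replicate 1 and at least 820 without atria replicate 2, which held both fragments. Cdx2 also stands in the gut epithelium list, whose sum moved with the HO parts, and the part of that was not tested. Rnf43, which removes Frizzled receptors from the surface, was at 7.34, 2.40 and 5.89 FPKM against 0.110, 0.216 and 0.270 FPKM (4.94 ± 0.65, adjusted p = 0.0047). Sp5, whose promoter is printed above, was at 1.59, 2.10 and 1.61 FPKM against 0.243, 0.170 and 0.426 FPKM (2.82 ± 0.56, adjusted p = 0.014), a call lost without atria replicate 1 or 2 (0.071 and 0.066). Myc was the other gene called higher in this list. Ccnd1, the cyclin D1 gene, was lower in both HO parts (-1.77 ± 0.24 and -2.14 ± 0.28) and turned to 2.03 and 0.83 under the cardiomyocyte scaling.

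In the atrium-like parts Dact2, an adaptor of Dishevelled, was called higher (2.76 ± 0.81), and Sost (-5.14 ± 1.02), an inhibitor of Lrp5 and Lrp6, Rspo1 (-3.78 ± 0.83), Apcdd1 (-2.04 ± 0.45), a membrane inhibitor, and Celsr1 (-1.77 ± 0.47), a polarity cadherin, lower, the last 2 with the opposite sign under the cardiomyocyte scaling (1.60 and 1.84). All 5 calls were lost without atria replicate 1, 2 or 3, those of Dact2 and Celsr1 also without atrium-like part replicate 1, and those of Dact2, Rspo1 and Apcdd1 without atrium-like part replicate 3 (adjusted p = 0.055 to 0.147). Of the 13 other inhibitors 2, Sost and Apcdd1, were called in the atrial comparison (15.4%, beside 24.8% of all genes), both lower. In the ventricular comparison 6 of the 13 were called, all higher (46.2%, beside 11.6% of all genes called higher). Notum, which strips ligands of their lipid, was at 13.4, 12 and 5.38 FPKM against 1.10, 0.560 and 0.436 FPKM in ventricles (3.78 ± 0.54, adjusted p = 0.0061), and in the atrium-like parts it was at 0.0173, 10.5 and 3.45 FPKM. Sostdc1 was at 1.67, 4.35 and 2.34 FPKM with 1 fragment over the ventricles. Draxin, a guidance cue and Wnt antagonist, was at 0.323, 1.72 and 0.130 FPKM and at least 40.2-fold higher, but at least 12.6-fold without ventricle-like part replicate 2. Kremen2, a receptor of Dkk proteins, had 81 fragments against 1, a ratio of 79.8 that was 42.9 without the same library and at least 9.09 without ventricles replicate 3, which held the 1 fragment. Apc2, a relative of the scaffold Apc, was also called higher (3.71 ± 0.99), at 2.08, 8.32 and 0.553 FPKM. The neural sum was likewise highest in ventricle-like part replicate 2 (50.6, 169 and 12.7 FPKM). So were the skeletal muscle (4.49, 50.8 and 1.48 FPKM), macrophage (183, 260 and 59.4 FPKM) and endothelial sums (23.6, 33.0 and 5.27 FPKM). The smooth muscle (491, 561 and 193 FPKM) and pluripotency sums (0.010, 1.28 and 1.19 FPKM) were highest there as well. Those of cardiomyocyte, hepatocyte, gut and epicardial genes were lowest there. The part of these cell types was not tested. The calls of Draxin, Kremen2 and Apc2 were lost without ventricles replicate 1, 2 or 3 and without ventricle-like part replicate 1 (adjusted p = 0.050 to 0.131). Called lower were Ccnd1, Dact3 (-1.5 ± 0.15), Ror2 (-1.17 ± 0.13), a receptor of Wnt5a, and Daam1 (-1.14 ± 0.21), and all 4 changed sign under the cardiomyocyte scaling (0.83 to 1.94). The call of Daam1 was lost without ventricles replicate 1 or 2 (adjusted p = 0.054 and 0.062).

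Of the genes followed in every comparison, Axin2, Lef1, Lrp6, Wif1, Rspo3 and Frzb were not called in either HO comparison. Axin2, the feedback gene most used as a readout of β-catenin, was at 0.673, 0.776 and 0.866 FPKM in the atrium-like and 1.10, 0.747 and 0.616 FPKM in the ventricle-like parts, against 0.637, 1.11 and 1.09 FPKM in atria and 0.396, 0.378 and 0.572 FPKM in ventricles (adjusted p = 0.85 and 0.25). Lef1 was at 0.313, 4.78 and 3.76 FPKM and 6.69, 9.13 and 4.52 FPKM in the HO parts and at 4.61 to 7.76 FPKM in E11.5H. Lrp6 stayed between 3.47 and 7.26 FPKM in all 12 libraries. Wif1, a secreted inhibitor, ranged from 0 to 22.2 FPKM in the HOs and stayed at or below 0.960 FPKM in E11.5H, and Rspo3, which is needed for vessels, was lowest in atrium-like part replicate 1 (3.03 FPKM) and highest in ventricle-like part replicate 3 (15.5 FPKM) of the HOs and at 2.83 to 14.3 FPKM in E11.5H. Frzb was at 1.5, 21.3 and 4.57 FPKM and 9.14, 7.54 and 3.21 FPKM in the HO parts.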

How the data were processed

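RNA was measured in 12 bulk libraries, 3 in each of 4 groups taken from the labels. The authors had the libraries prepared and sequenced by Takara, and the reads were aligned with STAR to mouse build GRCm38/mm10. The counting tool, its strand setting and the versions are not given in the sources used here, and the labels name a TruSeq kit. The table deposited by the authors gives, per gene and library, an expected count made from the aligned reads and an FPKM value, which divides it by transcript length and library size. Of the count values 23.8% were not whole, so counts were rounded, and 4740 of 26190 genes had no count. FPKM carries no correction for composition, so that very abundant transcripts can lower other values.

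In R 4.3.3, rounded counts went into the quasi-likelihood model of edgeR 4.0.16 after TMM scaling and removal of genes that failed filterByExpr (minimum count 10), each pairwise comparison on its own 6 libraries and the interaction on all 12, with p-values adjusted by Benjamini-Hochberg over all genes tested. Alternatives were DESeq2 1.42.0, limma 3.58.1 on log2(FPKM + 1) or log2(FPKM + 0.1), median-of-ratios size factors, no filter, no fold limit, all libraries in 1 fit, scaling to 12 cardiomyocyte genes, a replicate block and leaving out each library. Ratios of groups with 1 to 3 counts have exact 95% intervals, and a count of 0 is set at 3 counts per library. Their values with 1 library left out were added after seeing the data. The scripts were tested on simulated counts. Python 3.11.15, pandas 2.3.3 and matplotlib 3.10.9 made tables and figures. The members and lists were chosen with earlier results of these data known. Named with values were members called in any test or with a mean of 5 FPKM in a group, the members with the lowest and highest log2 fold change of each family between the HO parts, the pathway genes called between the E11.5H chambers, in each HO comparison the 5 called genes that rose most and the 5 that fell most, and Axin2, Lef1, Lrp6, Frzb, Wif1 and Rspo3 always. Other members are named for a complete account.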

Additional observations from a re-analysis of the deposited data

Results flagged for a closer look

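Wnt2 was singled out because its difference between atrial and ventricular samples itself differed between HOs and E11.5H, by an interaction term of -4.03 ± 0.58 on the log2 scale (edgeR, adjusted p = 0.039). Atrial libraries were higher by 3.61 in E11.5H, with all 3 atrial libraries above all 3 ventricular ones, and the HO parts overlapped with a log2 fold change of -0.43. The interaction call was lost without any single E11.5H library or HO atrium-like part replicate 3 (edgeR, adjusted p = 0.085 to 0.15). Over all genes 25 interaction calls became 2 to 6 without 1 E11.5H library and 13 without HO atrium-like part replicate 3. The Wnt2 call was also lost with a replicate block and under the cardiomyocyte scaling, where 5 and 10 of all genes were called.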

How the results depend on the processing

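Of 79 named log2 fold changes, 79 kept their direction and side of the threshold with median-of-ratios size factors, 76 with DESeq2, 75 with no filter, 73 with no fold limit, 73 with limma on log2(FPKM + 0.1), 63 with the replicate block, 60 with limma on log2(FPKM + 1), 54 of 73 with all libraries in 1 fit, and 49 under the cardiomyocyte scaling, where 19 reversed. With 1 library left out 414 of 510 did so. Calls of members between E11.5H chambers (8) became 5 with limma on log2(FPKM + 1), 1 with all 12 libraries in 1 fit, 13 with no fold limit and 13 under the cardiomyocyte scaling. Over all 14536 genes tested 712 calls became 386, 55, 1982 and 2977 in the same order. The cardiomyocyte scaling moves the median of all genes by 0.76 (E11.5H), 1.55 (HO parts), 3.88 (atrial) and 3.09 (ventricular). It gave 1 member call between HO parts, 24 and 29 in the atrial and ventricular HO comparisons (11 and 9) and 0 in the interaction (1). It also called 1373 of all 15703 genes between HO parts, 14139 of 15418 (atrial), 13854 of 15094 (ventricular) and 10 of 16494 (interaction). The share of higher among called genes went from 59.7% to 95.7% (E11.5H), 64.4% to 99.3% (atrial) and 61.2% to 99.4% (ventricular). The interaction had 4 calls with DESeq2 and 2 with limma at either pseudocount. Over all genes it had 438 with DESeq2, 89 with limma on log2(FPKM + 1) and 45 on log2(FPKM + 0.1). For pathway genes limma on log2(FPKM + 1) gave 4 between chambers (9) and 9 in the ventricular comparison (15), 1 fit of all libraries 0, no fold limit 19, and the scaling 24 (chambers), 7 (HO parts), 80 (atrial, 17) and 80 (ventricular). Over all genes these settings gave the counts above, and limma gave 2163 of 15094 in the ventricular comparison. DESeq2 called 2 in the pathway interaction (0). Under the scaling the sign turned for Fzd1 (0.10) and Fzd2 (0.34) between chambers, for Dkk2 between HO parts (1.25), for Fzd10 (0.39), Wnt2 (1.29), Wnt5b (1.11), Fzd2 (1.59), Fzd8 (2.13), Sfrp5 (0.97), Apcdd1 (1.60), Ccnd1 (2.03) and Celsr1 (1.84) in the atrial comparison, and for Sfrp1 (2.41), Fzd2 (0.39), Fzd8 (1.62), Ccnd1 (0.83), Dact3 (1.5), Ror2 (1.81) and Daam1 (1.94) in the ventricular one. These turns go with the moved medians given above. Leaving out 1 library gave 7 to 14 (atrial), 4 to 13 (ventricular) and 0 to 1 (interaction) member calls and 6 to 29, 5 to 19 and 0 to 1 pathway calls. Over all genes these fits gave 1662 to 5495 (atrial), 1116 to 3725 (ventricular) and 2 to 216 calls (interaction). Between HO parts, with 1 library left out, the log2 fold change ranged from -2.34 to 0.041 for Dkk1, -0.59 to 0.41 for Dkk2 and -4.52 to 2.61 for Sfrp4. Sfrp4 was also at -0.32 with limma on log2(FPKM + 0.1). Same-numbered libraries had deviation correlations of 0.017, 0.589 and 0.360 in HOs and 0.007, 0.021 and 0.043 in E11.5H. Those of differently numbered libraries were -0.671 to 0.436 in HOs and -0.038 to 0.017 in E11.5H. The methods have the HOs cut into both parts, but the labels do not say that equal numbers mark the same HOs. These values cannot settle it, and the main fits left the libraries unpaired. With a replicate block 6, 0, 8, 7 and 0 members were called (chambers, HO parts, atrial, ventricular, interaction), and Sfrp4 between HO parts was at -0.032. Over all genes the block gave 621, 0, 2806, 2003 and 5 calls in that order. The cause of these changes was not tested. Genes under about 10 counts per library could not be tested at this depth.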
